A study of Capra aegagrus with 10 samples.

Results

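Knockdown of the long noncoding RNA lncRNA55666 in goat mammary gland cells was compared with its control virus in small RNA libraries. The comparison covered 316 miRNAs of the 1403 known and predicted miRNA names in the table. A miRNA was included when it had at least 5 counts-per-million of miRNA reads (CPM) in at least 2 of the 4 libraries compared, before the TMM adjustment that the CPM printed below carry. The cells came from the mammary gland of the Lanshan dairy goat (organism given as Capra aegagrus) and were grown in 3D culture. The KD553 group received a virus that inhibits lncRNA55666, and the Lv3NC group is named as its 3NC control, with 2 libraries in each. The spread of the fit was shared with 6 further libraries, 2 each of Blank, of Lv5NC (named as the 5NC control) and of OV55666 (virus carrying lncRNA55666). The sources used here do not give the silencing construct, the time after infection or the share of infected cells. lncRNA55666 itself is not listed in a small RNA table, so the depth of the knockdown was not analysed here. Nothing states that the libraries of a group came from separate cultures, so p-values measure the spread between these libraries, which may be technical.

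miRNAs are short RNAs cut from hairpin precursors and loaded into Argonaute proteins, where the seed near the 5′ end selects mRNAs for repression and decay. Either arm of the hairpin, 5p or 3p, can be loaded. Long noncoding RNAs can bind miRNAs or regulate their host genes. In the mammary gland, miRNAs are studied for their part in epithelial differentiation, milk fat synthesis and involution. A miRNA can be lower in a bulk library because fewer cells of the type that makes it are present or because each cell holds less of it, and these cannot be told apart here.

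Of the 316 miRNAs, 193 were known goat miRNAs (of 369 names in the table) and 123 were predicted from reads (of 1034 names). In each of the 4 libraries they held 99.89% or more of the miRNA reads. The minimum was met in all 4 libraries by 244 miRNAs. It was met only in KD553 by 4 known miRNAs (miR-340-5p, miR-181c-5p, miR-454-3p and miR-30e-5p) and only in Lv3NC by 8 predicted ones, and those 12 had to differ in level by the way they entered. Just inside the limit lay novel_mir889, whose second highest value among the 4 libraries was 5.04 CPM before adjustment, and just outside lay miR-146b-5p at 4.76 CPM on that scale.

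The 4 libraries held 19345179 to 24431686 reads, of which 3963712 to 6088975 were miRNA reads, so that 1 CPM stood for 3.94 to 4.96 reads. miRNAs took 29.2% and 31.5% of the reads in Lv3NC and 25.5% and 16.2% in KD553. RF identifiers, which the table lists without names, took 11.2% and 15.98% in Lv3NC and 16.2% and 26.3% in KD553 (4.81% to 15.4% in the other 6 libraries). Predicted miRNAs took 2.91% and 2.07% of the reads in Lv3NC and 1.68% and 0.714% in KD553, below the 2.38% to 3.76% of the other 6 libraries. For each of these shares the groups did not overlap, and the exact permutation test gave the smallest p that 2 against 2 libraries allow, 0.333. KD553 replicate 2 stood apart: its median correlation with the other 9 libraries was 0.871 (Pearson r over the 316 log2 values), against 0.906 to 0.948 for the others. Within KD553, 58 miRNAs differed more than 4-fold between the replicates. Of these, 22 known and 1 predicted miRNA were higher in replicate 2, and 8 known and 27 predicted ones were higher in replicate 1. Within Lv3NC, 52 miRNAs differed more than 4-fold, 39 of them higher in replicate 1.

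At an adjusted p under 0.05, limma with Benjamini-Hochberg adjustment called 0 of the 316 miRNAs (0%). Without adjustment 32 (10.1%) had a p under 0.05, of which 17 (5.38%) had higher and 15 (4.75%) lower values in KD553, and limma with voom weights called 0 with 23 at that level. The median log2 difference, KD553 minus Lv3NC, was -0.16 over all 316 miRNAs. It was 0.09 for the known miRNAs, with 104 above 0 (53.9%) and 89 below, and -0.65 for the predicted ones, with 31 above 0 (25.2%) and 92 below. Without KD553 replicate 2 these medians were 0.11 over all, 0.22 for the known and -0.12 for the predicted miRNAs, and the share above 0 over all went from 42.7% to 56.0%. The median SE was 0.66, so a difference of 1 log2 unit was smaller than 2 SE for most miRNAs. Both KD553 libraries lay above both Lv3NC libraries for 47 miRNAs (14.9%) and below them for 68 (21.5%). Among the known miRNAs these counts were 39 (20.2%) and 32 (16.6%). Among the predicted ones they were 8 (6.5%) and 36 (29.3%). The medians, signs and positions given here include the 8 predicted miRNAs that met the minimum only in Lv3NC and the 4 known ones that met it only in KD553. Their directions were favoured by how they entered, which adds to the contrast between known and predicted miRNAs. Without KD553 replicate 1 limma called 16 miRNAs (12 higher and 4 lower), where KD553 replicate 2 stood alone for its group and was assumed to vary like the others, and with each other library left out it called 0. Scaling to all reads of the table moved the median to -0.41 and the share above 0 from 42.7% to 28.5%, scaling to miRNA reads without TMM factors moved the median to 0.030, so counts of signs among the families below depend on the scaling. The values that follow are descriptions of miRNAs that did not pass the adjusted threshold.

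**Figure D1:**
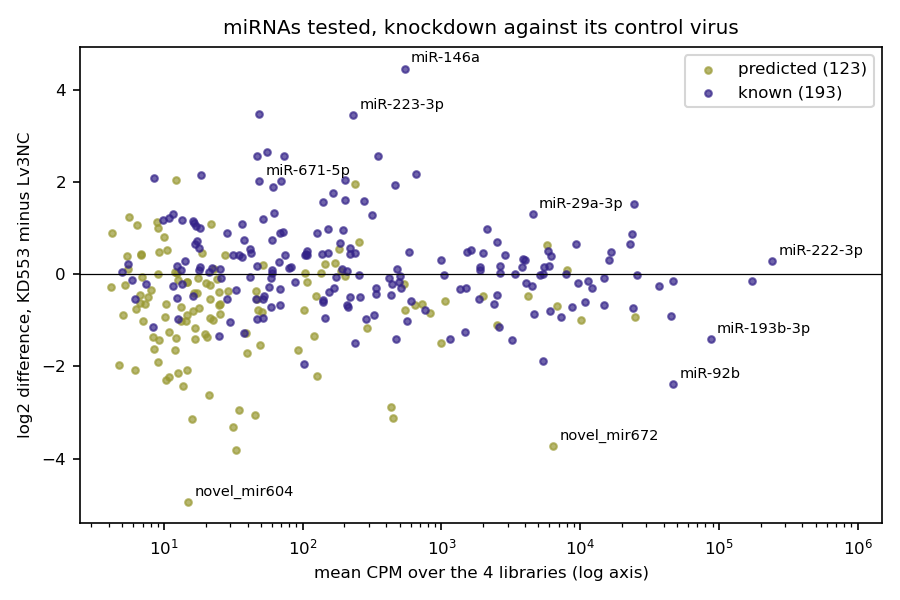
Each point is 1 of the 316 miRNAs, with its mean CPM over the 4 libraries on a log axis and its log2 difference (KD553 minus Lv3NC) on the vertical axis. Known miRNAs (193) lie on both sides of 0 with a median of 0.09, while most predicted miRNAs (123) lie below 0 with a median of -0.65.

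The leading miRNAs by p, 12 higher and 12 lower among those averaging 50 CPM or more, had adjusted p of 0.456 to 0.520, and for 22 of these 24 the libraries of the groups did not overlap, as for 115 of all 316 (36.4%). Since p chose the 24, this count is largely fixed by the choice. Their log2 differences had a median size of 1.54. Without KD553 replicate 2 the median size was 0.88, and without KD553 replicate 1 it was 1.98.

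**Figure D2:**
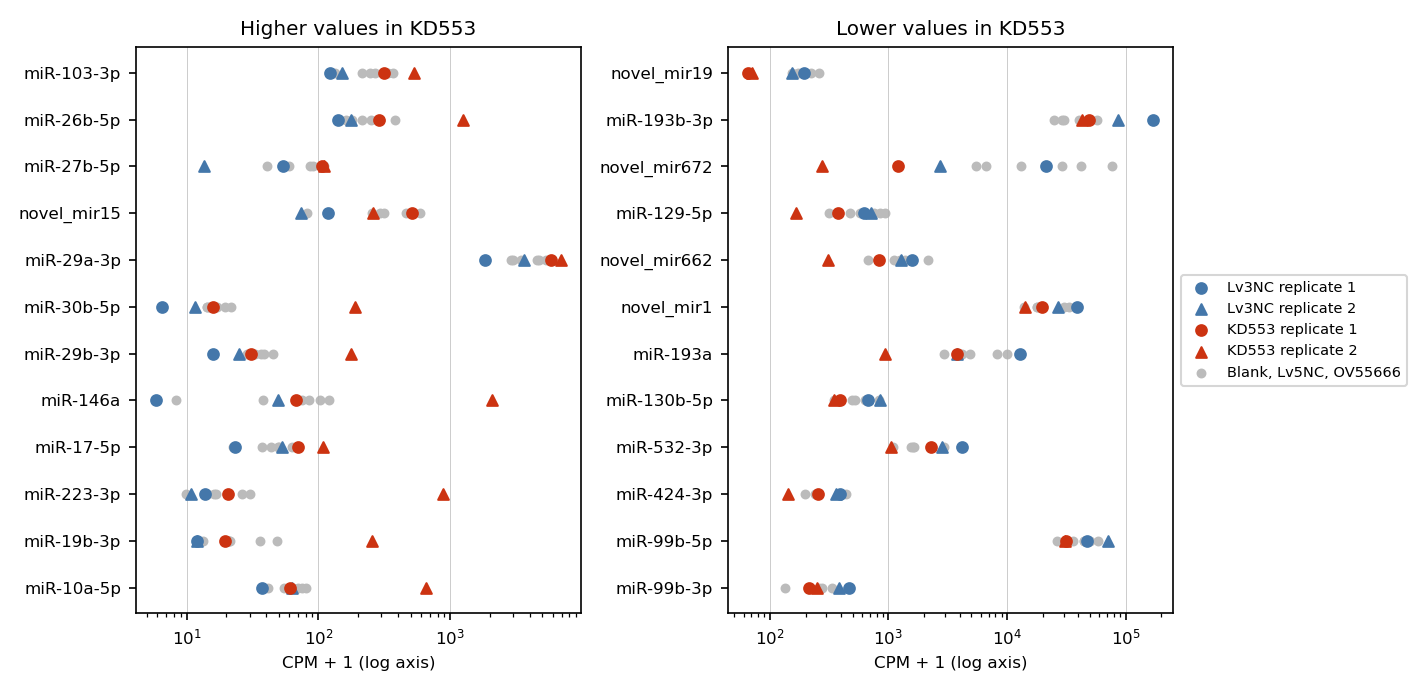
CPM + 1 on a log axis for the 12 miRNAs with higher and the 12 with lower values in KD553 that led by p among those averaging 50 CPM or more. Each marker is 1 library, and grey points are the 6 libraries of Blank, Lv5NC and OV55666. For miR-146a, miR-223-3p, miR-30b-5p, miR-29b-3p, miR-19b-3p and miR-10a-5p, KD553 replicate 2 lies far from every other library.

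The most abundant of the 12 miRNAs that led with lower values was miR-193b-3p, which in human tumour cells restrains proliferation. It stood at 171008 and 86766 CPM in the Lv3NC libraries and at 48919 and 42752 CPM in the KD553 libraries (log2 difference -1.41, SE 0.46, limma adjusted p = 0.456), and the difference was -1.82 to -0.83 with any 1 of the 4 libraries left out, nearest 0 without Lv3NC replicate 1. Both control libraries lay above all 8 others, and the KD553 values lay within the 25031 to 57599.8 CPM of the 6 libraries outside the comparison. Its paralog miR-193a stood at 12936 and 3784 CPM in Lv3NC and 3810.3 and 939.9 CPM in KD553 (log2 difference -1.89), and Lv3NC replicate 2 and KD553 replicate 1 were nearly equal. The opposite arm, miR-193b-5p, stood at 1768 and 5577 CPM in Lv3NC and 3231 and 3049.7 CPM in KD553, with both KD553 values between those of the controls. miR-365-3p, which shares a cluster with miR-193, stood at 55.5 and 129 CPM in Lv3NC and 203 and 122 CPM in KD553. Of the 4 tested members of the miR-193 and miR-365 group, 1 was above 0 and 3 were below (2 and 2 with median-of-ratios scaling), with a median of -0.71. The summed level of the group was 185768 and 96256 CPM in Lv3NC, against 56163 and 46863 CPM in KD553, and spanned 29478 to 64453 CPM in the other 6 libraries.

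The miR-29 family, which represses collagen and other matrix genes, had higher values: all 4 tested members were above 0 (median 0.87, and 3 of 4 with scaling to all reads), against 104 of the 193 known miRNAs. Here and in the other families, either arm of a hairpin counts as a member, and the function named need not hold for both arms. The 4 include the 5p arms miR-29b-5p (log2 difference 0.17) and miR-29c-5p. miR-29a-3p carried most reads of the family. It stood at 1824 and 3599 CPM in Lv3NC and 5811 and 6924 CPM in KD553 (log2 difference 1.31, SE 0.49, limma adjusted p = 0.456), and both KD553 libraries lay above the 2872 to 5286 CPM of the other 6. miR-29b-3p stood at 15 and 24 CPM in Lv3NC and 30.0 and 176 CPM in KD553, so its difference came mainly from KD553 replicate 2 (log2 difference 1.89, and 0.71 without that library). miR-29c-5p was close to even, at 97.1 and 140.2 CPM in Lv3NC and 156 and 158 CPM in KD553. Summed over the 6 names of the family, the level was 1996 and 3863 CPM in Lv3NC, against 6084 and 7447 CPM in KD553, and spanned 2999 to 5407 CPM in the other 6 libraries. KD553 exceeded every other library in this sum, and the exact permutation p was 0.333, the smallest possible.

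All 7 tested members of the miR-30 family were above 0 (median 0.54, and 5 of 7 with scaling to all reads), and 5 of them had both KD553 libraries above both Lv3NC libraries, as did 39 of the 193 known miRNAs (20.2%). The 7 include the 3p arms miR-30b-3p (log2 difference 0.04), miR-30c-3p (0.09) and miR-30e-3p (0.54). Among the 7, miR-30e-5p met the minimum only in KD553. miR-30a-5p, the main member, stood at 2124 and 2784 CPM in Lv3NC and 3266 and 3228 CPM in KD553 (log2 difference 0.42, SE 0.51). miR-30c-5p stood at 11.6 and 11.3 CPM in Lv3NC and 18.4 and 31 CPM in KD553, and the other 6 libraries spanned 3.39 to 16.1 CPM. miR-30b-5p stood at 5.49 and 10.7 CPM in Lv3NC and 14.8 and 189.7 CPM in KD553, with a log2 difference of 2.66 that was 0.93 without KD553 replicate 2. In the miR-181 family, known for its role in lymphocyte development, 3 of 4 names were tested and had both KD553 libraries above both Lv3NC libraries (median 1.16, and 0.77 without KD553 replicate 2), as did 39 of the 193 known miRNAs (20.2%). The abundant miR-181b-5p stood at 3394 and 6594 CPM in Lv3NC and 6726 and 6669.5 CPM in KD553, where Lv3NC replicate 2 was nearly level with KD553. miR-181d stood at 5.91 and 9.47 CPM in Lv3NC and 12.8 and 25.4 CPM in KD553. miR-181c-5p stood at 4.22 and 5.04 CPM in Lv3NC and 10.1 and 54.9 CPM in KD553 (log2 difference 2.15, SE 0.79, limma adjusted p = 0.456). Without KD553 replicate 2 the log2 difference of miR-181c-5p was 1.06, and without replicate 1 it was 3.42. It met the minimum in KD553 alone, so some difference was built into its choice. These values rest on 20 and 25 reads in Lv3NC and 50 and 216 reads in KD553.

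The miR-17 seed family with the miR-17-92 cluster and its paralogs, which promote cell cycle entry, had 9 of 14 tested members above 0 (median 0.46) and 5 below. With scaling to all reads these were 8 and 6. miR-17-5p stood at 22.2 and 51.8 CPM in Lv3NC and 69.3 and 107.2 CPM in KD553 (log2 difference 1.32), and both KD553 libraries lay above the 21.4 to 61.5 CPM of the other 6. miR-20a-5p stood at 24.1 and 35.1 CPM in Lv3NC and 42.8 and 105.9 CPM in KD553. miR-18a-5p stood at 4.65 and 6.65 CPM in Lv3NC and 8.71 and 23.4 CPM in KD553. In these 3 cluster members both KD553 libraries were higher and replicate 2 was the highest. The summed level of the 22 names, which include the abundant miR-92 names, went the other way, with 73392 and 94656 CPM in Lv3NC, against 57678 and 65592 CPM in KD553, and spanned 35839 to 70538 CPM in the other 6 libraries. miR-19b-3p, a member of the miR-17-92 cluster, stood at 11 and 11.1 CPM in Lv3NC and 18.6 and 252 CPM in KD553, and its log2 difference of 2.55 was 0.78 without KD553 replicate 2. In the miR-15 and miR-16 family, which restrains the cell cycle, 6 of 7 tested members were above 0 (median 0.18), and 3 of 7 with scaling to all reads. miR-16b-5p stood at 5156 and 9585 CPM in Lv3NC and 9895 and 12423 CPM in KD553, above the 4039.9 to 9321 CPM of the other 6 libraries in both KD553 libraries. miR-16a-5p stood at 3127 and 4070.5 CPM in Lv3NC and 4188 and 3759.8 CPM in KD553, and the groups overlapped. Their names are near-identical, and their sum had a log2 difference of 0.49 (SE 0.45).

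miR-103-3p, which limits insulin signalling in mice and has been studied in goat milk fat synthesis, had the smallest p among the abundant miRNAs with higher values. It stood at 121 and 150.3 CPM in Lv3NC and 312 and 529.7 CPM in KD553 (log2 difference 1.59, SE 0.50, limma adjusted p = 0.456), and its range with any 1 of the 4 libraries left out was 1.29 to 2.07. The related miR-107-3p went the other way, at 249 and 261 CPM in Lv3NC and 138 and 188 CPM in KD553 (log2 difference -0.66). miR-26b-5p stood at 139 and 175 CPM in Lv3NC and 289 and 1246 CPM in KD553, where replicate 2 of KD553 was the high library and replicate 1 lay inside the 159.6 to 377 CPM of the other 6. Its abundant relative miR-26a-5p stood at 4438 and 5881 CPM in Lv3NC and 4506 and 7292 CPM in KD553, and the groups overlapped. miR-27b-5p stood at 52.8 and 12.5 CPM in Lv3NC and 106.0 and 109.7 CPM in KD553 (log2 difference 2.01). Here the KD553 replicates were close together and Lv3NC replicate 2 was lower than any other library. In the miR-23, miR-27 and miR-24 clusters, 4 of 8 tested members were above 0 and 4 below (median 0.021), with 2 above 0 under scaling to all reads and 6 under scaling without TMM factors. miR-24-3p stood at 9430.2 and 1072 CPM in Lv3NC and 971 and 1449.8 CPM in KD553, where Lv3NC replicate 1 was the high library. Among miRNAs of families studied in milk fat, miR-148a-3p stood at 6.76 and 20.5 CPM in Lv3NC and 16.4 and 23.1 CPM in KD553, and the groups overlapped. miR-130b-5p stood at 667 and 852 CPM in Lv3NC and 393 and 349 CPM in KD553, lower in both KD553 libraries (log2 difference -1.02). Its opposite arm miR-130b-3p had a log2 difference of 0.42. Of the 3 tested members of the miR-130 and miR-301 family, 2 were above 0 and 1 below (median 0.13), and 1 was above 0 with scaling to all reads.

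Lower values also lay in the miR-99 and miR-100 family, described as repressors of mTOR signalling: 3 of 5 tested members were below 0 and 2 above (median -0.72). miR-99b-5p stood at 47471 and 71581 CPM in Lv3NC and 31466 and 30615 CPM in KD553 (log2 difference -0.91, SE 0.42). miR-100-5p stood at 8675 and 13308 CPM in Lv3NC and 6756 and 6313 CPM in KD553. Their KD553 replicates were close together and the groups did not overlap, while the KD553 values lay within the range of the other 6 libraries. miR-99a-3p stood on the other side, at 9.5 and 10.7 CPM in Lv3NC and 23.5 and 22.6 CPM in KD553. Of the let-7 family, which represses growth genes such as HMGA2, 6 of 15 tested members were above 0 and 9 below (median -0.14), and 10 were above 0 with scaling to miRNA reads without TMM factors. The abundant let-7b-5p stood at 115006 and 253449 CPM in Lv3NC and 204639.7 and 117812 CPM in KD553, so that the Lv3NC replicates differed more from each other than the group means did. let-7d-3p stood at 6544 and 5471 CPM in Lv3NC and 3341 and 3247 CPM in KD553 without overlap, and let-7f-5p at 1236 and 1405 CPM in Lv3NC and 1537 and 4339.5 CPM in KD553. All 4 tested members of the miR-34 and miR-449 family, linked to p53 and to ciliated cells, were below 0 (median -0.53), and 2 of 4 with median-of-ratios scaling. The abundant miR-34a stood at 7061 and 8912 CPM in Lv3NC and 8035 and 7811 CPM in KD553, nearly level. The member with the lowest value was miR-34b-3p, at 43.7 and 61.6 CPM in Lv3NC and 30.2 and 14.2 CPM in KD553 (log2 difference -1.28). In the miR-125 family 3 of 4 tested members were below 0 (2 of 4 with scaling to miRNA reads without TMM factors). In the miR-10 and miR-196 family 3 of 4 were below 0 (median -0.36), but 1 of 4 without Lv3NC replicate 2 (median 0.28). Without that library 9 of the 15 let-7 members and 2 of the 4 miR-34 and miR-449 members were above 0.

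The most abundant miRNA, miR-222-3p, a repressor of the cell cycle inhibitor p27, stood at 284832 and 161732 CPM in Lv3NC and 242209.5 and 281023 CPM in KD553 (log2 difference 0.28). miR-21-5p, a widely expressed miRNA that rises in many tumours and fibrotic tissues, stood at 7134 and 13181 CPM in Lv3NC and 11782 and 65775 CPM in KD553. KD553 replicate 2 was the high library, and without it the log2 difference of miR-21-5p was 0.36 in place of 1.52. miR-320-3p, which is made without Drosha, stood at 11885 and 16068 CPM in Lv3NC and 20854 and 18099 CPM in KD553, above the 6489 to 11337 CPM of the other 6 libraries in both KD553 and both Lv3NC libraries. miR-191-5p, miR-23a and miR-423-3p had log2 differences of -0.0111, -0.0832 and -0.27, and their groups overlapped. All 3 tested miR-221 and miR-222 names were above 0 (median 0.32), but 1 of 3 with scaling to all reads. In the miR-532 and miR-362 cluster 4 of 6 were above 0, and 3 of 6 with that scaling. The large DLK1-DIO3 cluster was nearly silent, with 1 of its 39 names tested.

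Most predicted miRNAs had lower values, with a median of -0.65 that was -0.12 without KD553 replicate 2. novel_mir672, the most abundant of those with both KD553 libraries below all 8 others, stood at 21286 and 2706 CPM in Lv3NC and 1196 and 272 CPM in KD553 (log2 difference -3.73, SE 1.28). With scaling to all reads of the table novel_mir672 passed the threshold (-4.08, limma adjusted p = 0.000547, with 0.000547 to 0.947 over its alternatives). The Lv3NC replicates themselves were far apart, and the other 6 libraries spanned 5524 to 76786 CPM. novel_mir19 was tighter, at 193.2 and 152.1 CPM in Lv3NC and 64.4 and 69.1 CPM in KD553 (log2 difference -1.35, SE 0.41, limma adjusted p = 0.456), with both KD553 libraries below the 152.1 to 256 CPM of the other 6. novel_mir130 stood at 48.6 and 24.8 CPM in Lv3NC and 8.51 and 2.54 CPM in KD553, also below the other 6 libraries in both replicates. The abundant novel_mir1 stood at 38806 and 26706 CPM in Lv3NC and 19694 and 14331 CPM in KD553, inside the range of the other 6 libraries. novel_mir662 stood at 1590.4 and 1274 CPM in Lv3NC and 825 and 309 CPM in KD553, with KD553 replicate 2 the lowest of all 10 libraries. In novel_mir14 and novel_mir7 Lv3NC replicate 1 alone was high, with 1666 and 1589 CPM against 42.1 and 40.1 CPM in replicate 2. novel_mir15 went the other way, at 116 and 73.1 CPM in Lv3NC and 509 and 257 CPM in KD553 (log2 difference 1.96). The files pair no sequence with these names. The share of predicted miRNAs among all reads, given above, moved with the groups in the same direction. Among miRNA reads, over which CPM were taken, their share was 9.97% and 6.57% in Lv3NC and 6.62% and 4.40% in KD553. On that scale the groups overlapped (exact permutation p = 0.667). The part of either share in these values was not tested.

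The smallest adjusted p of all belonged to novel_mir604 (limma, 0.0821). It had 118 and 173 reads in Lv3NC and 0 reads in both KD553 libraries, that is 24.9 and 34.9 CPM against 0. The other 6 libraries had 0 to 15 reads, or 0 to 2.82 CPM. With a floor of 3 reads put in for the KD553 group, the pooled ratio of Lv3NC over KD553 was 88.7. This ratio covers counting error only and leaves out the spread between libraries. Both Lv3NC libraries lay above all 8 others, and the KD553 values of 0 were shared with Blank replicate 1 and OV55666 replicate 1. With a pseudocount of 5 it passed the threshold (log2 difference -2.79, limma adjusted p = 0.00806, with 0.000547 to 0.767 over its alternatives), and it also passed without KD553 replicate 1 and with scaling to all reads of the table. It entered the comparison through Lv3NC alone, so some difference was built into its choice.

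The arms of the miR-671 hairpin differed in direction. In humans miR-671-5p directs cleavage of the circular RNA Cdr1as. miR-671-5p stood at 15.6 and 22.2 CPM in Lv3NC and 77.2 and 79 CPM in KD553 (log2 difference 2.01, SE 0.57, limma adjusted p = 0.456), and both KD553 libraries lay above the 21 to 58.7 CPM of the other 6. miR-671-3p stood at 52.8 and 27.8 CPM in Lv3NC and 26.1 and 12.4 CPM in KD553 (log2 difference -1.04), with both KD553 libraries below those 6. The ratio of 5p to 3p reads was 0.299 and 0.799 in Lv3NC, 2.94 and 6.24 in KD553 and 0.562 to 1.69 in the other 6 libraries. A ratio within a library does not depend on how the libraries are scaled. With any 1 of the 4 libraries left out, the log2 difference of miR-671-5p was 1.86 to 2.33.

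Both arms were tested for 56 miRNAs, and in 27 of them the log2 differences of the arms had opposite signs. The 5p share was higher in both KD553 libraries than in both Lv3NC libraries for 16, lower for 8, and overlapping for 32. These counts include miR-199a and miR-27b (5p share higher) and miR-92a (lower), whose 3p arms have near-identical names, treated below. Their ratios and signs can also move with how reads were divided between names. In OV55666 replicate 2, for example, miR-27a-3p held 99.97% of its sum with miR-27b-3p. miR-671 and miR-500 were the only ones whose 5p to 3p ratio in KD553 lay above all 8 other libraries, and miR-345 and miR-99a the only ones below. miR-345 had ratios of 33.6 and 11.0 in Lv3NC and 4.54 and 3.88 in KD553 (7.49 to 25.0 in the other 6). For miR-340, miR-140 and miR-424 the higher ratio lay in KD553 replicate 2. The ratio of miR-424 was 0.101 and 0.0951 in Lv3NC, 0.109 in KD553 replicate 1 and 3.97 in replicate 2. That of miR-140 was 0.128 and 0.108 in Lv3NC, 0.144 in KD553 replicate 1 and 1.92 in replicate 2. For miR-424 and miR-140, KD553 replicate 1 lay close to the Lv3NC libraries.

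**Figure D3:**
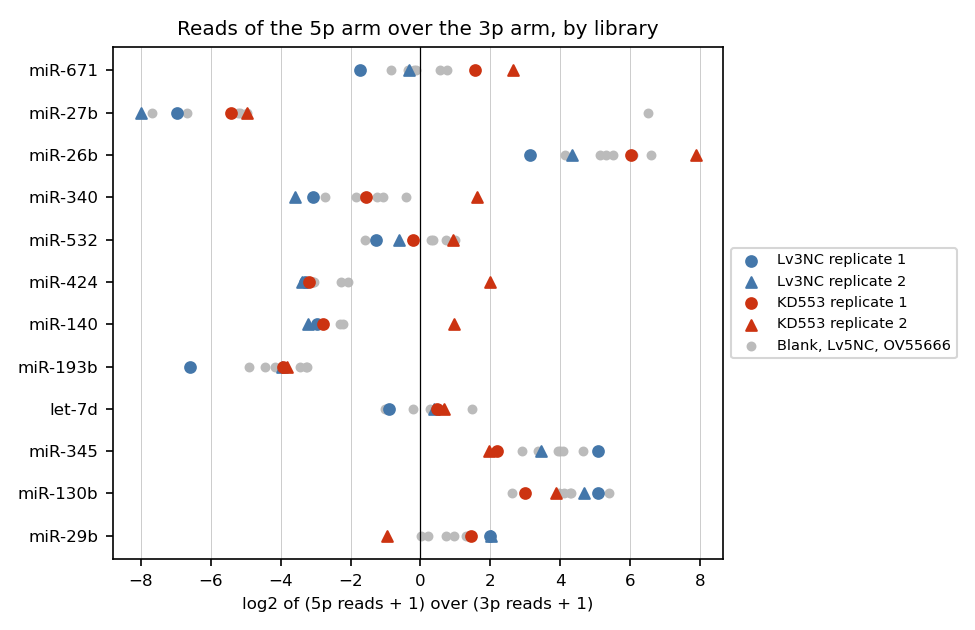
Log2 of (5p reads + 1) over (3p reads + 1) by library for 12 miRNAs with both arms tested. miR-671 has its KD553 libraries to the right of all others, miR-345 has them to the left, and miR-424 and miR-140 have KD553 replicate 2 alone to the right. For miR-27b the 3p reads may be divided with the near-identical name miR-27a-3p.

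Some miRNAs of blood and immune cells and of innate signalling were far higher in KD553 replicate 2 than in the other libraries. So were miRNAs of other kinds. miR-146a, induced by NF-kB and an inhibitor of its signalling, stood at 4.86 and 48.3 CPM in Lv3NC and 66.5 and 2055 CPM in KD553 (log2 difference 4.45, SE 1.82, and 2.06 without replicate 2). miR-223-3p, which is made by myeloid cells, stood at 12.9 and 9.87 CPM in Lv3NC and 19.5 and 885 CPM in KD553. miR-150, made by mature lymphocytes, stood at 96.7 and 24.8 CPM in Lv3NC and 35.3 and 646 CPM in KD553. In each case replicate 2 of KD553 was far above the other 9 libraries, and replicate 1 was within their range. The erythroid miR-451-5p did not share this, at 1019 and 163 CPM in Lv3NC and 537 and 293 CPM in KD553. Neither did miR-155-5p, at 668 and 1123 CPM in Lv3NC and 1258 and 915 CPM in KD553. On the blood list, miR-144-3p, which was not tested, did not share it either, with 24 and 0 reads in Lv3NC and 12 and 1 in KD553. Further named miRNAs with replicate 2 far above replicate 1 included miR-340-5p (2.32 and 2.82 CPM in Lv3NC and 7.5 and 181.8 CPM in KD553), miR-424-5p (39.3 and 34 CPM in Lv3NC and 27.8 and 562 CPM in KD553), miR-140-5p (15 and 5.84 CPM in Lv3NC and 25.7 and 141.5 CPM in KD553) and miR-10a-5p (36.1 and 62 CPM in Lv3NC and 59.6 and 655 CPM in KD553). Several of these are made in many cell types and are not blood markers.

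Over the whole lists, 3 of 6 blood and immune names were tested, and their summed level was 1134 and 198 CPM in Lv3NC, against 594 and 1847 CPM in KD553, and spanned 229 to 928 CPM in the other 6 libraries. The 8 epithelial names summed to 30.6 and 11.1 CPM in Lv3NC and 9.73 and 74.2 CPM in KD553 (10.4 to 25.8 CPM in the other 6 libraries). KD553 replicate 2 had the highest sum of this list too. Of these 8 names miR-200c alone was tested, at 15.8 and 6.85 CPM in Lv3NC and 2.23 and 29.2 CPM in KD553. The miRNAs that define epithelium were thus at low levels in all 4 libraries. The 11 fibroblast and smooth muscle names summed to 16128 and 12671 CPM in Lv3NC and 18235 and 10819 CPM in KD553 (15629 to 23777 CPM in the other 6 libraries). KD553 replicate 2 had the lowest sum of this list. Of its 10 tested members 6 were above 0 and 4 below, and 4 and 6 with scaling to all reads. miR-145-5p was higher in both KD553 libraries, at 1892 and 1931 CPM in Lv3NC and 2917 and 3340.5 CPM in KD553, and miR-143-3p differed more within the groups than between them, at 5058 and 777 CPM in Lv3NC and 3213 and 505 CPM in KD553. None of the names counted in these 3 lists was at 0 in all 4 libraries. The lists as planned also held miR-205 (epithelial) and miR-142 and miR-486 (blood and immune), which are not among the names counted. The absence of zeros therefore does not cover them. The part of cell mixture in the miRNA differences was not tested.

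**Figure D4:**
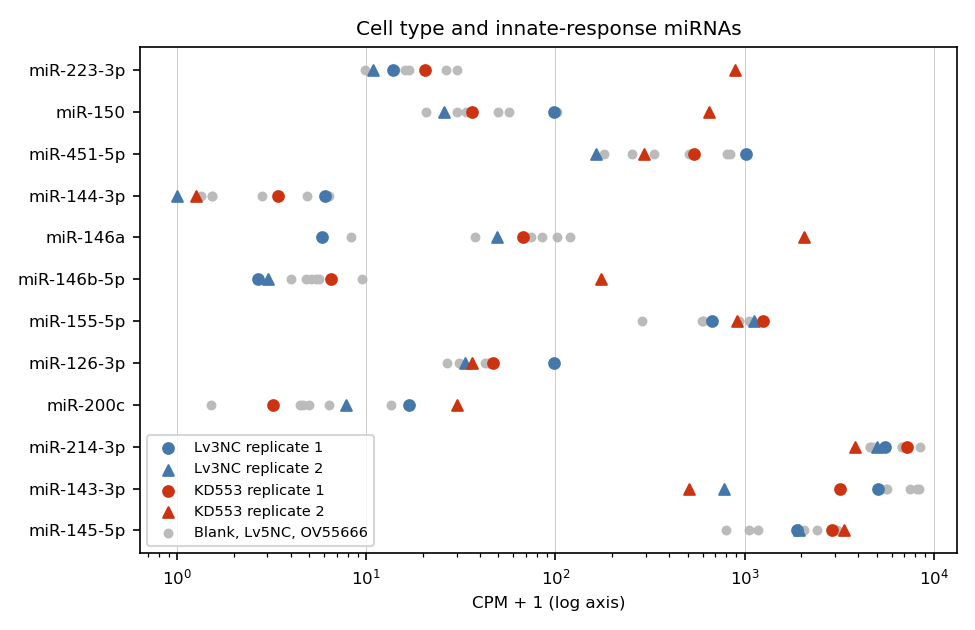
CPM + 1 on a log axis for 12 miRNAs known from blood, endothelial, epithelial and stromal cells and from innate signalling, with 1 marker per library. KD553 replicate 2 lies far to the right of all other libraries for miR-223-3p, miR-150, miR-146a and miR-146b-5p. It is also the rightmost library, by less, for miR-200c and miR-145-5p. It lies within the range of the others for miR-451-5p, miR-144-3p, miR-126-3p and miR-155-5p, and to the left of all for miR-214-3p and miR-143-3p.

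Some of the largest differences lay in miRNAs with near-identical names or of one family. Reads can be divided between such miRNAs in counting where their sequences are alike. No sequences were given, so their likeness was not checked. miR-92b stood at 58131 and 77068 CPM in Lv3NC and 3385 and 49246 CPM in KD553 (log2 difference -2.37). miR-92a-3p stood at 13552 and 15347 CPM in Lv3NC and 51958 and 13237 CPM in KD553 (log2 difference 0.86). Their sum was 71683 and 92414 CPM in Lv3NC and 55343 and 62483 CPM in KD553, with a log2 difference of -0.48 (SE 0.36, limma adjusted p = 0.625). miR-92a-3p held 93.9% of the sum in KD553 replicate 1 and 21.2% in replicate 2, and in the 10 libraries its share lay between 9.92% and 21.2% or between 93.6% and 94.1%. The 3p arms of miR-199 behaved likewise: miR-199a-3p alone had a log2 difference of -1.41, miR-199b-3p 2.17 and miR-199c-3p 2.55, and their sum -0.32. miR-103-3p with miR-107-3p gave a sum of 370 and 411 CPM in Lv3NC and 451 and 717 CPM in KD553 (log2 difference 0.53, SE 0.44), smaller than that of miR-103-3p alone. miR-103-3p held 32.6% and 36.5% of this sum in Lv3NC and 69.3% and 73.8% in KD553, and 39.0% to 66.6% in the other 6 libraries. The single names in these groups are therefore uncertain as levels.

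**Figure D5:**
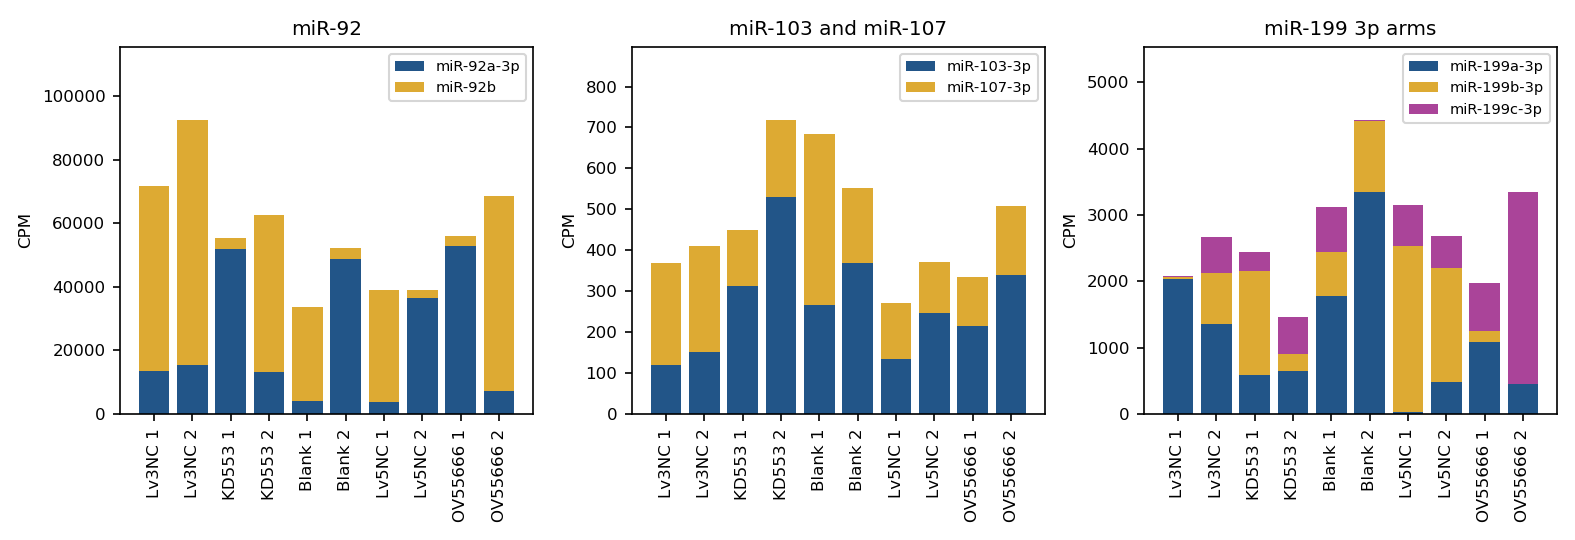
Stacked CPM by library for miR-92a-3p with miR-92b, miR-103-3p with miR-107-3p, and the 3p arms of miR-199a, miR-199b and miR-199c. miR-92a-3p holds 93.9% of the miR-92 sum in KD553 replicate 1 and 21.2% in replicate 2, while the sum itself stays between 55343 and 92414 CPM in the 4 libraries compared.

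A difference between KD553 and Lv3NC can lie in either group, and the position of each group was set against the 6 other libraries. Those are Blank, Lv5NC and OV55666 libraries, which differ in treatment from both groups, so a position does not show which group changed. Both KD553 libraries lay outside all 8 others for 27 miRNAs (8.54%), 16 above (5.06%) and 11 below (3.48%). Both Lv3NC libraries lay outside all 8 others for 20 (6.33%), 11 above (3.48%) and 9 below (2.85%). The first set held miR-671-5p, miR-29a-3p, miR-17-5p, miR-425-5p, miR-30a-5p and miR-16b-5p on the high side and novel_mir19, novel_mir672 and novel_mir454 on the low side. The second held miR-193b-3p, miR-99b-3p and novel_mir604 on the high side and miR-140-5p, miR-340-5p, miR-30b-5p, miR-29b-3p and miR-19b-3p on the low side. miR-181c-5p was in both sets. It and miR-340-5p met the minimum only in KD553 and novel_mir604 only in Lv3NC, so their positions were partly set by how they entered. All of these are counts of positions with no test.

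The knockdown effect was set against the overexpression effect in the same fit, as the log2 difference KD553 minus Lv3NC less the log2 difference OV55666 minus Lv5NC. These comparisons share no library. limma called 1 of the 316 miRNAs (0.316%), miR-328-3p, and 21 (6.65%) had an unadjusted p under 0.05. For miR-328-3p the knockdown libraries gave a log2 difference of -0.92 (SE 0.73, limma adjusted p = 0.663), at 13832 and 5162 CPM in Lv3NC and 7733 and 2569 CPM in KD553. Its reads numbered 6 and 2 in Lv5NC and 54633 and 91633 in OV55666. Without KD553 replicate 1 the count of called miRNAs was 6. For the other members the test gave no call with 2 libraries a group, which does not show that the effects were alike.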

How the data were processed

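The table was read as deposited. Its count columns hold whole-number read counts per small RNA identifier with no normalization, per the file headers, and its TPM columns hold the authors' counts-per-million of 1 library total. Of 22330 count cells, 50.7% hold a missing mark and none holds 0, so missing cells were read as 0 and the columns were not treated as a plain count table for a count model. TPM was used only to check library totals: it summed to 999999 in both KD553 libraries. Another 2 per-sample columns, both headed with the name of Lv3NC replicate 1, were not used. The sources used here name no aligner, miRNA database or genome build and give no miRNA sequences. KD553 columns were matched by title, since the descriptions number them differently. A swap would alter only the replicate names and the block.

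CPM were counts of known and predicted miRNAs over the miRNA reads of the library. They were adjusted by TMM factors, with trims of 30% for ratios and 5% for levels, which were 0.796 to 0.993 in the 4 libraries compared. The fit on log2(CPM + 1) of the 316 miRNAs used limma 3.58.1 and statmod 1.5.0, run in R 4.3.3, with 1 mean per group over all 10 libraries (5 residual degrees of freedom, abundance trend, robust moderation). Tests were two-sided, with Benjamini-Hochberg adjustment over the 316 and a threshold of 0.05. A log2 difference on this scale understates the change of low miRNAs. Single values were tested by exact permutation. Intervals are exact at 95% and, like the floor of 3 reads, cover counting error only. The fit was tested on simulated data.

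Named miRNAs were the 12 higher and 12 lower that led by p among those averaging 50 CPM or more, the 8 most abundant and the main members of families and marker lists. Others, such as novel_mir604, miR-671, miR-21-5p, miR-340-5p and those named for their position among all libraries, were chosen after their values were seen. The members, lists and rules were chosen with earlier results of these data known. Alternatives changed the pseudocount, filter, scaling, weights, libraries and rows tested.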

Additional observations from a re-analysis of the deposited data

Results flagged for a closer look

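miR-328-3p had a knockdown effect that differed from the overexpression effect by -13.72 log2 units (SE 1.03, limma adjusted p = 0.00017). Its level overlapped between KD553 and Lv3NC, and its 10 or fewer reads in each Blank and Lv5NC library stood against 10115 or more in each of the other 6 libraries.

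Among 827 small RNA identifiers outside the miRNAs, 3 had at least 20 reads in each KD553 library and at least 5 times the level of both Lv3NC libraries. The predicted siRNA novel_sir3 had 773 and 247 reads in KD553, 0 and 11 in Lv3NC and 0 in the other 6 libraries. Per table total it was 78.9-fold higher in KD553 (95% exact interval 43.9 to 159). RF01164 had 39 and 82 reads in KD553 and 2 and 5 in Lv3NC, a ratio of 14.7 (95% exact interval 6.92 to 37.3). RF01502 had 26 and 27 reads in KD553 and 1 in each Lv3NC library. The rows were chosen for a ratio of at least 5 in these same libraries. The direction of the ratios was therefore fixed by the choice, and their intervals are no test of it. Each interval pools the reads of a group and covers counting error only. It leaves out the spread between libraries, such as 773 against 247 reads of novel_sir3 within KD553. The table gives no sequence for these rows, and what they are was not tested. Groups of 2 libraries are too small for a search for single outlying libraries.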

How the results depend on the processing

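The count of called miRNAs was 0 in the comparison of KD553 with Lv3NC and also with median-of-ratios scaling, a filter at 50 CPM, no filter, scaling without TMM factors, only the 4 libraries, voom weights, known miRNAs only and near-identical names summed, the last chosen after seeing the data. It was 1 with a pseudocount of 5 (novel_mir604) and 2 with scaling to all reads (novel_mir604 and novel_mir672). With a library left out it was 0 to 16, and the count for the difference of effects was 1 to 6. The 95 named miRNAs gave 994 log2 differences under the alternatives that keep all libraries. Of these 959 kept sign and call, 32 changed sign and 3 passed the threshold. Each of the miRNAs that changed sign had a difference smaller than its SE. They were miR-191-5p (0.10), miR-23a (0.0299), miR-34a (0.11), miR-449a-5p (0.0269), miR-214-3p (0.11), miR-451-5p (0.0744) and miR-193b-5p (0.11) with median-of-ratios scaling. With scaling to miRNA reads without TMM factors they were let-7b-5p (0.0698), let-7a-5p (0.0504), miR-191-5p (0.20), miR-23a (0.12), miR-125a-5p (0.0676), miR-34a (0.20), miR-449a-5p (0.12), miR-214-3p (0.21), miR-451-5p (0.17) and miR-193b-5p (0.21). With scaling to all reads they were miR-222-3p (-0.0881), miR-16a-5p (-0.22), miR-26a-5p (-0.20), miR-23b-3p (-0.0555), miR-148b-3p (-0.00137), miR-221-3p (-0.0502), miR-155-5p (-0.0605), miR-532-5p (-0.22) and miR-133b (-0.0293). With only the 4 libraries they were miR-191-5p (0.00749), miR-34a (0.0165), miR-214-3p (0.0182) and miR-193b-5p (0.0181). miR-214-3p (0.00275) changed sign with voom weights and miR-200c (0.000988) with a pseudocount of 5. The ranges with a library left out crossed 0 for miR-423-3p (-0.998 to 0.65), miR-200c (-1.76 to 1.496), miR-214-3p (-0.36 to 0.55), miR-451-5p (-1.27 to 1.37), miR-126-3p (-1.18 to 0.40), miR-199b-3p (-0.22 to 4.73), miR-199c-3p (-0.33 to 5.60), miR-27b-3p (-0.68 to 0.36), miR-345-5p (-4.32 to 0.59), miR-143-3p (-1.90 to 0.80), miR-24-3p (-2.90 to 0.24), miR-222-3p (-0.0408 to 0.78), let-7b-5p (-0.62 to 0.52), let-7a-5p (-0.44 to 0.30), miR-191-5p (-0.22 to 0.37), miR-23a (-0.10 to 0.13), miR-125a-5p (-0.28 to 0.18), miR-196b (-0.80 to 0.56), miR-34a (-0.0801 to 0.25), miR-449a-5p (-0.51 to 0.52), miR-193b-5p (-0.74 to 0.91), miR-92a-3p (-0.0178 to 1.93), miR-130b-3p (-0.000618 to 1.01), miR-133b (-0.0273 to 0.76), miR-26a-5p (-0.0976 to 0.62), miR-125b-5p (-0.62 to 0.22), miR-154b-5p (-1.03 to 0.13), miR-150 (-0.39 to 3.79) and miR-424-5p (-0.30 to 4.01). With no filter (782 miRNAs) the median over all miRNAs moved by -0.25, and with known miRNAs only by 0.15. The base-composition alternative was not run, since no sequences were given.

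The replicate numbers do not pair the libraries by design. The log2 differences of replicate 2 minus replicate 1 in KD553 and in Lv3NC had a Pearson r of 0.373 over the 316 miRNAs. With the number as a replicate block, 0 miRNAs were called in the knockdown comparison (44 at an unadjusted p under 0.05, 32 without the block) and 1 for the difference of effects. With 2 libraries a group and 3.94 to 4.96 reads per CPM, the smallest exact p of a single value is 0.333.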

Other observations

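Another predicted siRNA went the other way from novel_sir3. novel_sir6 was at 0 reads in KD553 replicates 1 and 2, with 33 and 22 reads in the control virus libraries, against 16 to 37 reads in 5 of the other 6 libraries and 0 in Blank replicate 2.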
